A study of Mus musculus with 2 samples.

Results

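Inhibitory receptors and the nuclear factor Tox were followed in T cells of mouse lung adenocarcinoma. The 7 genes, taken by name from 17790 in the deposited table, were Pdcd1, Lag3, Havcr2, Ctla4, Tigit, Cd160 and Tox. The study parted dissected and dissociated lung tumours of C57BL/6 mice with magnetic beads into a CD45-positive (leukocyte) and a CD45-negative fraction, and each fraction gave 1 droplet library that reads transcripts at their 3' end. The labels give no genotype, treatment, age or number of mice for either fraction, and the name LucOS in the cell names is not explained in the sources used here. T cells were the cells of the deposited Immune class in the CD45-positive library with at least 2 UMI (unique molecular identifiers, counted transcripts) of Cd3d, Cd3e and Cd3g together, and there were 4255 of them. A Foxp3 UMI placed 244 in a Foxp3 group. The rest were split by at least 2 UMI of Cd8a and Cd8b1 together and by at least 1 UMI of Cd4 into 1241 CD8, 392 CD4, 97 double-positive ("both") and 2281 cells with neither mark.

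Inhibitory receptors are surface proteins that T cells put up after antigen contact and that lower signalling from the T cell receptor or from CD28. PD-1 (Pdcd1), LAG-3 (Lag3), TIM-3 (Havcr2), TIGIT and CD160 are best known from CD8 T cells under lasting stimulation by antigen in chronic infection and tumours, while CTLA-4 is carried at high level by regulatory T cells, which the factor Foxp3 defines. TOX is a DNA-binding protein of the HMG-box family that is needed for the exhausted state of such CD8 T cells.

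The 7 genes lie apart in the genome. On GRCm38, Pdcd1 is at chr1:94038305-94052553 (minus strand), Ctla4 at chr1:60887000-60915832 (plus), Lag3 at chr6:124904361-124911705 (minus), Havcr2 at chr11:46454935-46481255 (plus), Tigit at chr16:43648867-43664146 (minus), Cd160 at chr3:96798763-96829351 (minus) and Tox at chr4:6686353-6991557 (minus). Cd160 overlaps Pdzk1 on the other strand. Pdzk1 had 28 UMI over all cells of both libraries and 3 in the CD8 group, and no source used here states whether counting was by strand.

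The 250 bases before the RefSeq start (GRCm38.p6) are shown for 4 receptors whose T cell patterns differ below. They are Pdcd1 and Havcr2, which were found together in CD8 cells, Ctla4, highest in Foxp3 cells, and Cd160, highest in CD8 and double-positive cells. RefSeq promoters were matched for 5 of the 7 genes, and the first of 2 is given for Cd160. Each is written 5′ to 3′ on the gene's own strand, with capitals for matches on either strand to GGAAA (the core bound by NFAT factors), TGANTCA (AP-1), GGTGTGA (T-box) or TGTGGTT (RUNX).
Pdcd1 (chr1:94052554-94052803, minus strand): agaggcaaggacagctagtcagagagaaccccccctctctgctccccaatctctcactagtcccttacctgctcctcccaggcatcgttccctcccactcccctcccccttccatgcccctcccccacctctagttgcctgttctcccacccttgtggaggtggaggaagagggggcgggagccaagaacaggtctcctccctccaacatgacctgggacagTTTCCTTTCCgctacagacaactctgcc
Havcr2 (chr11:46454681-46454930, plus strand): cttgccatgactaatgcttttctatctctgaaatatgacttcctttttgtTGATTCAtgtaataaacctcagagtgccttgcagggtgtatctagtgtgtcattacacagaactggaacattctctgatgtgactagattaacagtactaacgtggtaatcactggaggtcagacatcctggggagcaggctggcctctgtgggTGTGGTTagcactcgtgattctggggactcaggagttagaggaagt
Ctla4 (chr1:60908775-60909024, plus strand): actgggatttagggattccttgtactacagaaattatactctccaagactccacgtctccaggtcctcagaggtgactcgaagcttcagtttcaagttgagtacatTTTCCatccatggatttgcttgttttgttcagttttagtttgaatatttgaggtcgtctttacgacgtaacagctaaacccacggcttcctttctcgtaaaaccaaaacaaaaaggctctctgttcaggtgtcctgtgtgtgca
Cd160 (chr3:96829352-96829601, minus strand): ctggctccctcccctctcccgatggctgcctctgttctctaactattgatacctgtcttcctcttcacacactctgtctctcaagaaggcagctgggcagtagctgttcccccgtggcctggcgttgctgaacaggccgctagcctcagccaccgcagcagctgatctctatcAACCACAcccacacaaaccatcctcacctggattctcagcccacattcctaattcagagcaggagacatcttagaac
Counted from the start, Pdcd1 held GGAAA as 2 reverse matches at -28 and -23, and Ctla4 held 1 at -144. Havcr2 held TGANTCA at -200 and TGTGGTT at -46, and the first Cd160 promoter held TGTGGTT at -77. The second Cd160 promoter, not shown, held GGAAA at -145, GGTGTGA at -189 and TGTGGTT at -101. Of 32851 mouse promoter windows of this length, 55.6% held GGAAA, 6.75% TGANTCA, 3.33% GGTGTGA and 4.4% TGTGGTT, and a match describes letters only.

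The CD45-positive library held 11432 barcodes and 47477407 UMI, the T cells 15712746 UMI with a median of 3149 per cell. With 1 library and no replicate, no difference could be tested against variation between animals or libraries, and the intervals in parentheses are 95% intervals for counting error only. The groups matched their markers in part. Ikzf2, a factor of regulatory T cells, stood at 531 CPM (UMI of a gene per 1000000 UMI of the group) in the Foxp3 group against 153 CPM in the CD4 and 100.2 CPM in the CD8 group. However, 83 of the 244 Foxp3 cells also had a UMI of Cd8a or Cd8b1, and only 55 had one of Cd4. T cell transcripts were not kept to the immune class: 1274 of 3994 barcodes of the non-immune classes, or 31.9% (30.5 to 33.4%), also passed the Cd3 limit, against 7 of 3849 in the CD45-negative library. Of the T cells, 2202 (51.8%, 50.2 to 53.3%) also passed a limit for markers of another lineage, most often B cells (931), neutrophils (603) and plasma cells (552). That share was 43.9% in Foxp3, 37.6% in CD8, 51.8% in CD4, 43.3% in double-positive and 60.6% in the cells with neither mark. The B cell gate (250 cells with no Cd3 UMI, median 2720 UMI) gave the level in cells outside the T lineage, where transcripts can also come from free RNA: 0 UMI of Pdcd1 (below a floor of 3.93 CPM), and 17.0 CPM of Lag3, 19.6 CPM of Ctla4, 5.23 CPM of Havcr2 and 5.23 CPM of Tox. The limits of 1 UMI for Foxp3 and for Cd4 were each passed by 2.4% (0.886 to 5.15%) of these B cells. How many cells entered the Foxp3 and CD4 groups through free RNA was not tested. The libraries shared 57 barcode sequences.

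Ctla4, which competes with CD28 for CD80 and CD86, was highest in the Foxp3 group. Its level was 290 CPM (258 to 324) there, 141 CPM (109 to 179) in double-positive cells, 129 CPM (112 to 148) in CD4, 116 CPM (107 to 126) in CD8 and 87.8 CPM (81.4 to 94.5) in cells with neither mark. The Foxp3 interval lay above all others, and the double-positive, CD4 and CD8 intervals overlapped. A Ctla4 UMI was found in 58.6% (52.1 to 64.9%) of Foxp3 cells (median 3633 UMI), 29.3% (26.7 to 31.9%) of CD8 cells and 4.4% (2.22 to 7.74%) of B cells. With each cell thinned to 2000 UMI, the Foxp3 and CD8 shares were 43.9% and 18.5%. The Foxp3 level was 287 CPM (248 to 331) in the 161 cells with no Cd8a or Cd8b1 UMI and 339 CPM (291 to 394) without cells holding markers of another lineage.

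Lag3, a receptor that binds MHC class II, was highest in CD8 cells. Its level was 211 CPM (198 to 225) in CD8, 130 CPM (99.7 to 167) in double-positive, 122 CPM (102 to 145) in Foxp3, 39.1 CPM (29.8 to 50.3) in CD4 and 34.0 CPM (30.1 to 38.3) in cells with neither mark. Double-positive and Foxp3 cells overlapped, as did the last pair. Lag3 was found in 31.8% (29.2 to 34.5%) of CD8 cells, with a mean of 2.49 UMI per cell with any, and in 4.0% (1.93 to 7.23%) of B cells. The Foxp3 level depended on which cells were counted: 82 CPM (61.6 to 107) in Foxp3 cells with no Cd8a or Cd8b1 UMI, and 253 CPM (193 to 326) in the 53 with at least 2. The largest Lag3 count in a single Foxp3 cell was 21, of 127 UMI in the group. Counting intervals do not allow for such uneven cells.

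Pdcd1, the gene of PD-1, was also highest in CD8 cells. It stood at 117 CPM (107 to 127) in CD8, 76.0 CPM (60.2 to 94.8) in Foxp3, 70.5 CPM (48.6 to 99.1) in double-positive, 52.8 CPM (41.9 to 65.6) in CD4 and 31.4 CPM (27.7 to 35.6) in cells with neither mark. The CD8 interval was above the others, while Foxp3, double-positive and CD4 neighbours overlapped. A Pdcd1 UMI was found in 27.2% (24.8 to 29.8%) of CD8 cells, 25% (19.7 to 30.9%) of Foxp3 cells and 0 of 250 B cells. Without cells holding markers of another lineage, the CD8 level was 152 CPM (137 to 168) and the CD4 level 70.8 CPM (51.3 to 95.4).

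Cd160, a receptor for the TNF receptor family member HVEM, was found mainly in cells with Cd8 transcripts. Its level was 44.7 CPM (38.9 to 51.2) in CD8 and 32.1 CPM (17.9 to 52.9) in double-positive cells, with overlapping intervals. It was 9.63 CPM (4.62 to 17.7) in Foxp3, 7.98 CPM (6.15 to 10.2) in cells with neither mark and 4.56 CPM (1.83 to 9.39) in CD4 cells, and these 3 intervals overlapped. In Foxp3 cells with no Cd8a or Cd8b1 UMI only 2 Cd160 UMI were counted.

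Havcr2, the gene of TIM-3, was low in all T cell groups. It stood at 31.8 CPM (21.9 to 44.6) in Foxp3, 23.9 CPM (19.6 to 28.7) in CD8, 21.4 CPM (10.2 to 39.3) in double-positive, 11.7 CPM (6.95 to 18.5) in CD4 and 11.2 CPM (9.02 to 13.8) in cells with neither mark. The first 3 overlapped, and so did the last pair. In the Foxp3 group 18 of the 33 UMI lay in the 53 cells with at least 2 UMI of Cd8a and Cd8b1 (75.9 CPM, 45 to 120), and cells with no such UMI had 17.9 CPM (9.22 to 31.2). Tigit, which binds the poliovirus receptor CD155, had 62 UMI over all 4255 T cells, never more than 1 in a cell. Its levels lay between 3.12 and 10.7 CPM with overlapping intervals, so a difference between the groups was not detectable at this depth.

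Tox was spread more evenly. Its level was 67.5 CPM (60.3 to 75.4) in CD8, 59.8 CPM (39.8 to 86.5) in double-positive, 52.9 CPM (39.9 to 68.9) in Foxp3, 37.8 CPM (28.7 to 48.8) in CD4 and 30.4 CPM (26.7 to 34.5) in cells with neither mark. Each neighbour in this order overlapped the next. A Tox UMI was found in 19.6% (17.4 to 21.9%) of CD8 cells. Without cells holding markers of another lineage the order was CD8 80.1, double-positive 67.0, CD4 56.0, Foxp3 54.6 and neither 49.3 CPM, so CD4 and Foxp3 changed places.

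**Figure D1:**
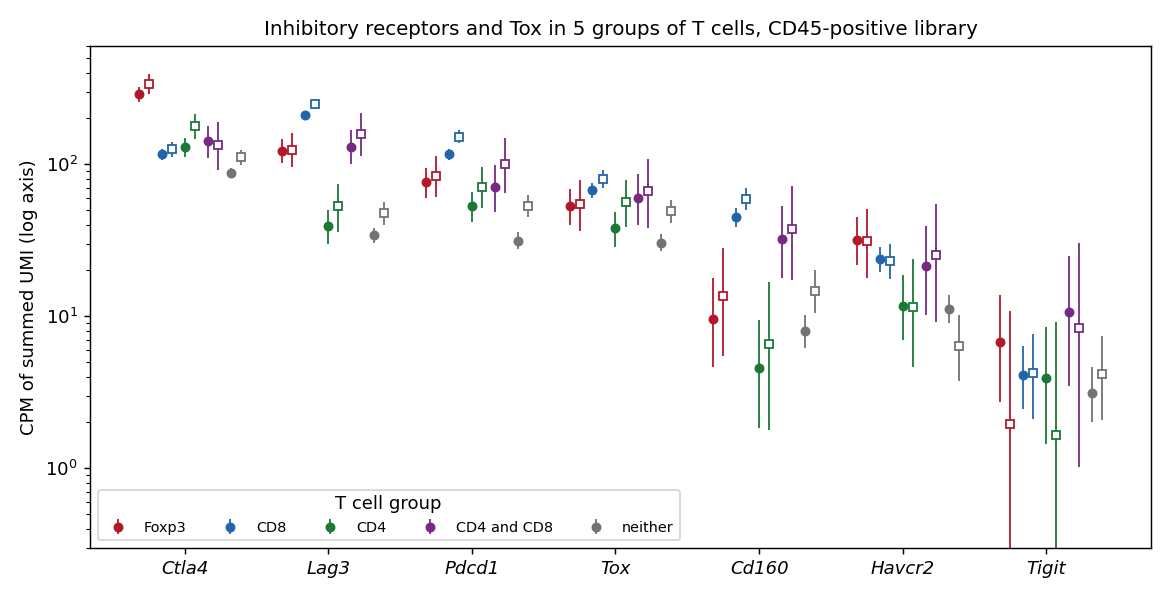
CPM of summed UMI (log axis) of the 7 genes in the 5 T cell groups of the CD45-positive library, with 95% counting intervals. Filled circles are all cells of a group and open squares the cells without markers of another lineage. Ctla4 stands at 290 CPM in Foxp3 cells, and Lag3 and Pdcd1 are highest in CD8 cells. Cd160 is highest in CD8 and double-positive cells, whose intervals overlap.

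Set against each other, the groups differed by receptor. A ratio of at least 2 in genes with at least 20 UMI in the 2 groups together was called. Foxp3 against CD4 cells, 3 of the 5 members tested were higher and 0 lower, where 2.52% of 7620 genes were higher and 2.98% lower: Lag3 by 3.13-fold (2.28 to 4.33), Havcr2 by 2.71-fold (1.48 to 5.11) and Ctla4 by 2.25-fold (1.87 to 2.70). Pdcd1 (1.44, 1.04 to 1.99) and Tox (1.40, 0.951 to 2.06) stayed under 2, and Tigit and Cd160 had too few UMI. These calls were not firm. For Lag3, a single Foxp3 cell held 21 of the 127 UMI, which the interval does not allow for. Without the Foxp3 cells that had a Cd8a or Cd8b1 UMI, the Lag3 ratio was 2.09 and the Havcr2 ratio 1.52. With at least 2 Foxp3 UMI the Lag3 ratio was 1.39, and without cells holding markers of another lineage the Ctla4 ratio was 1.91. CD8 against CD4 cells, 4 of 7 members were higher and 0 lower, where 3.22% of 9740 genes were higher and 2.23% lower: Cd160 by 9.81-fold (4.68 to 24.7), Lag3 by 5.4-fold (4.16 to 7.14), Pdcd1 by 2.21-fold (1.75 to 2.83) and Havcr2 by 2.04-fold (1.23 to 3.56). Tox had a ratio of 1.79 (1.35 to 2.41), Tigit 1.05 (0.401 to 3.2) and Ctla4 0.900 (0.764 to 1.07). With at least 1 UMI of Cd8a and Cd8b1 the ratios of Pdcd1 (1.8) and Havcr2 (1.62) were under 2. The Havcr2 ratio was also under 2 with at least 1 Cd3 UMI (1.66) and without the top 5% of cells by UMI or mitochondrial share (1.95). Foxp3 against CD8 cells, Ctla4 was the 1 member of 7 called higher (2.5-fold, 2.16 to 2.88), where 2.98% of 9542 genes were, and Cd160 the 1 called lower (0.215, 0.102 to 0.404), where 5.1% were. The ratios of Lag3 (0.579), Pdcd1 (0.652), Tox (0.784), Havcr2 (1.33) and Tigit (1.65) lay between the limits. These comparisons share the Foxp3, CD8 and CD4 cells.

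The other genes of the pathway were taken from lists of related receptors, factors and adaptors. Foxp3 against CD4, 2.52% of all genes tested were higher and 2.98% lower. CD8 against CD4 the shares were 3.22% and 2.23%, and Foxp3 against CD8 they were 2.98% and 5.1%. At these shares, 0 or 1 gene called in a direction is not read as a result about a list. Of the costimulatory receptors, which raise T cell signalling, 3 of 7 tested were higher in Foxp3 than in CD4 cells (Tnfrsf4, Tnfrsf9, Tnfrsf18) and 0 lower, and their median log2 ratio was 0.79 against 0.04 over all genes. Foxp3 against CD8 cells, 4 of 7 were higher (the same 3 and Icos). Of the effector genes, 7 of 12 were higher in CD8 than in CD4 cells, among them Ifng (interferon gamma, 4.92-fold, 3.57 to 6.96), and 1 (Tnf) was lower. Of 22 factors tied to exhaustion or effector state, Eomes was higher and Maf lower in CD8 than in CD4 cells. Of the 10 adaptors that the receptors signal through, such as the phosphatases Ptpn6 and Ptpn11, 0 were called in either direction for CD8 against CD4 or Foxp3 against CD8 cells, and 1 of 9 (Sh2d1b1) was lower in Foxp3 than CD4 cells. Further inhibitory receptors gave 1 of 14 higher Foxp3 against CD4 (Klrg1) and, CD8 against CD4, 1 of 16 higher (Klrc1) and 1 lower (Klrg1). Of stem-like genes, 1 of 10 was higher in each comparison with CD4 cells (Xcl1), Cxcr5 was lower in Foxp3 than in CD4 cells, and of residency genes 1 of 4 (Itgae) was higher in Foxp3 than CD4 cells. Cycling genes gave 0 of 6 called for Foxp3 against CD4, 1 lower (Ccna2) for CD8 against CD4 and 2 higher (Top2a, Ccna2) for Foxp3 against CD8 cells.

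The transcripts were not all in T cells. Of the UMI in the CD45-positive library, 78.0% of Pdcd1, 77.0% of Cd160, 75.3% of Lag3, 66.8% of Tox, 66.7% of Ctla4, 53.9% of Tigit and 43.5% of Havcr2 were in T cells. Havcr2 was also found in myeloid cells with no Cd3 UMI, beside its 31.8 CPM in Foxp3 cells: 69.9 CPM (43.8 to 106) in 81 macrophages with C1q genes, 66.2 CPM (34.2 to 116) in 41 conventional dendritic cells and 32.6 CPM (25.1 to 41.8) in 514 alveolar macrophages. Lag3 stood at 123 CPM (61.5 to 220) in 29 plasmacytoid dendritic cells, from 11 UMI in 8 cells. The gates for NK cells and mast cells held too few cells to give a level.

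Ctla4 was also found in cells of a gate for plasma cells, the antibody-secreting cells. It stood at 83.5 CPM (59.7 to 114) in 142 such cells of the CD45-positive library, chosen to have no Cd3 UMI, against 19.6 CPM (11 to 32.4) in B cells. These 142 cells also held the costimulatory receptor Icos at 56.4 CPM (37.2 to 82.0), in 17 cells. How much of their Ctla4 came from T cell RNA was not tested. In the CD45-negative library, where Pdcd1 had 0 UMI in all cells, 22 cells of the plasma cell gate held 41 of the 48 Ctla4 UMI of that library. The level was 275 CPM (197 to 373), with a UMI in 15 of the 22 cells. In these 22 cells, which were not chosen by Cd3, the UMI of Cd3d, Cd3e, Cd3g, Foxp3, Icos, Pdcd1, Lag3 and Cd8a were 0, each allowing up to 20.1 CPM by the floor of 3 counts. Cd4 had 7 UMI, and Cd28, a receptor that plasma cells also carry, stood at 322 CPM (237 to 427).

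**Figure D2:**
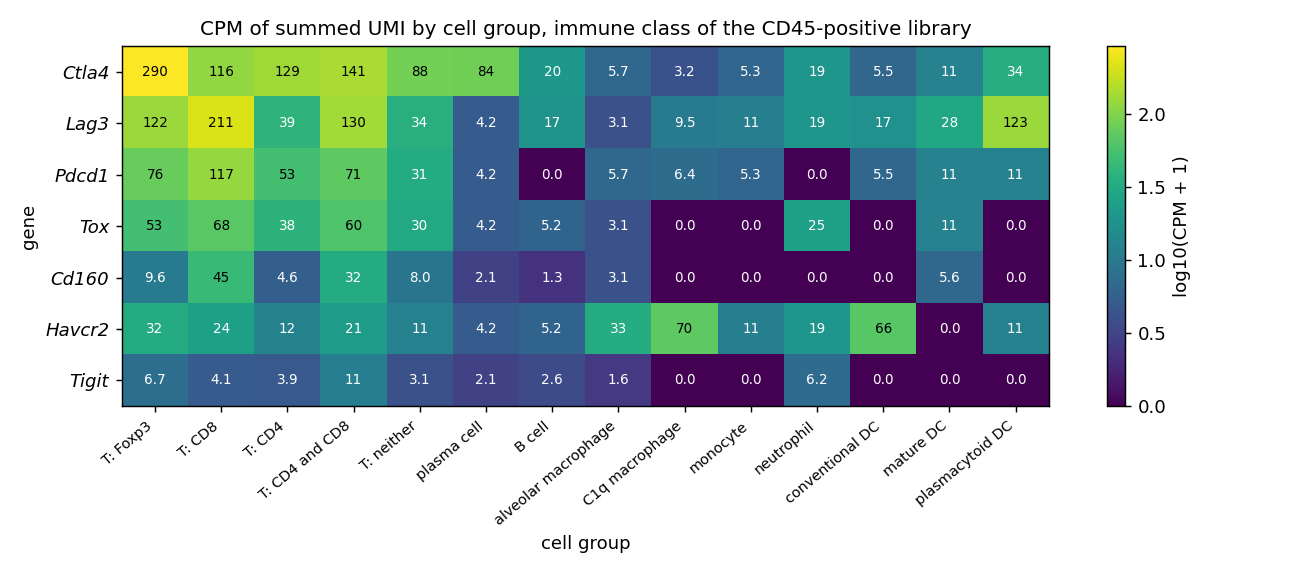
CPM of summed UMI of the 7 genes (rows) in 14 cell groups (columns) of the Immune class in the CD45-positive library, with colour on a log10(CPM + 1) scale and the CPM in each cell. Havcr2 is highest in macrophages with C1q genes (69.9 CPM) and conventional dendritic cells (66.2 CPM). Ctla4 stands at 83.5 CPM in the plasma cell gate, whose cells also held Icos.

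At full depth, cells with several receptors were more frequent in the double-positive, Foxp3 and CD8 groups than in the CD4 group, and those 3 groups overlapped. At least 2 of the 6 receptors were found in 392 of 1241 CD8 cells, or 31.6% (29.0 to 34.3%), in 37.1% (27.5 to 47.5%) of double-positive cells, in 35.7% (29.6 to 42.0%) of Foxp3 cells and in 14.5% (11.2 to 18.4%) of CD4 cells. Of the B cells, which were chosen to have no Cd3 UMI, 0 of 250 had 2, which allows up to 1.46% by the exact interval. Of 514 alveolar macrophages chosen in the same way, 7 had at least 2 (1.36%, 0.549 to 2.79%). At 2000 UMI per cell the shares were 18.7% (16.6 to 21.0%) in CD8, 16.5% (9.73 to 25.4%) in double-positive, 16.8% (12.3 to 22.1%) in Foxp3 and 7.91% (5.44 to 11%) in CD4 cells. The double-positive interval then overlapped that of CD4 as well. Double-positive cells had the highest median UMI of the 5 groups, 4265 against 3260 in CD4 cells. At least 3 were found in 14.3% (12.4 to 16.3%) of CD8, 13.4% (7.33 to 21.8%) of double-positive, 8.61% (5.41 to 12.9%) of Foxp3 and 1.79% (0.721 to 3.64%) of CD4 cells. The highest number was 5, in 3 CD8 cells, whose median was 5948 UMI. In CD8 cells the most frequent states were none (492 cells), Ctla4 alone (118), Lag3 alone (104), Pdcd1 alone (67) and Pdcd1, Lag3 and Ctla4 together (62). In Foxp3 cells Ctla4 alone was the most frequent (75 cells, 30.7%).

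**Figure D3:**
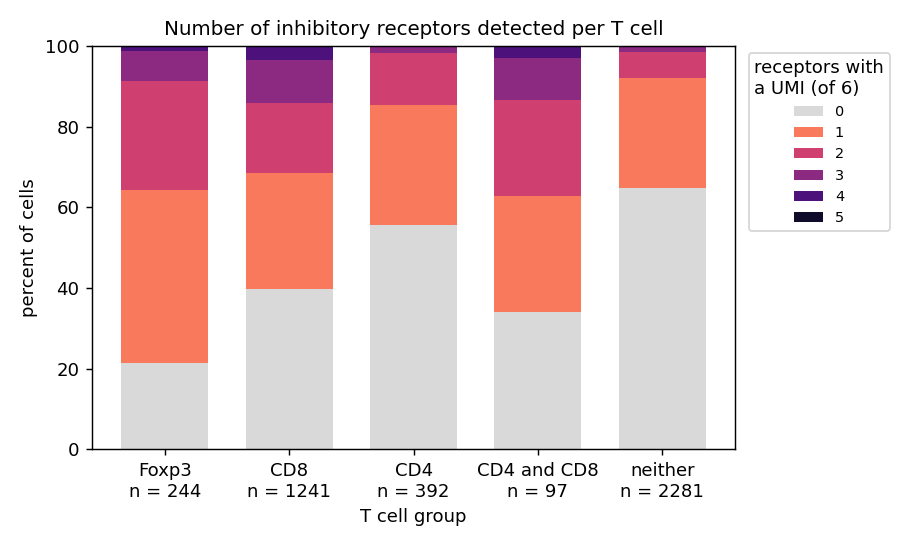
Percent of cells (y axis) with 0 to 5 of the 6 inhibitory receptors detected, for the 5 T cell groups (x axis, with cell numbers). At full depth, which differs between the groups, at least 2 receptors were found in 37.1% of double-positive, 35.7% of Foxp3, 31.6% of CD8 and 14.5% of CD4 cells.

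In CD8 cells the receptors were found together more often than their separate frequencies give. The expected number of cells with both genes was summed over quartiles of UMI per cell, and pairs with at least 5 expected cells were read. All 18 such pairs of the 7 genes had an observed over expected ratio above 1, from 1.11 to 1.98 with a median of 1.45, though the intervals of 7 pairs reached below 1. The expected numbers took account of UMI per cell only, not of other differences between the cells. Pairs of other genes were not computed, so whether such ratios are particular to these 7 genes was not tested. Pdcd1 and Lag3 shared 197 cells where 108.6 were expected (1.81, 1.57 to 2.09). Of the cells with Pdcd1, 58.3% had Lag3. Tox joined them: its ratio was 1.98 (1.42 to 2.70) with Havcr2, 1.71 (1.41 to 2.05) with Pdcd1 and 1.57 (1.30 to 1.87) with Lag3. The lowest ratio was that of Ctla4 with Cd160 (1.11, 0.831 to 1.46). Without cells holding markers of another lineage, Pdcd1 with Lag3 gave 1.83 (1.54 to 2.16), and at 2000 UMI per cell 1.92 (1.57 to 2.32). At that depth 13 of the 14 pairs with at least 5 expected cells were above 1. Cd160 with Tox was below it (0.679, 0.293 to 1.34, against 1.23 at full depth), and Havcr2 with Ctla4 was 1.04 (0.517 to 1.85).

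The 536 CD8 cells with Pdcd1 or Lag3 (43.2% of the group) held 106 CPM (92.8 to 121) of Tox, against 35.4 CPM (28.5 to 43.5) in the 705 without, and 166 CPM (149 to 185) against 74.4 CPM (64.1 to 85.8) of Ctla4. In Foxp3 cells 5 of 10 pairs were above 1, with a median of 0.99, and the intervals of all 10 reached below 1. Pdcd1 and Ctla4 were together in 31 Foxp3 cells where 36.1 were expected (0.858, 0.583 to 1.22), and Pdcd1 and Lag3 in 23 where 14.8 were expected (1.55, 0.983 to 2.33). In CD4 cells 6 of 6 pairs were above 1, 3 of them with an interval reaching below 1, with a median of 1.65 and, for Pdcd1 with Tox, 1.97 (1.10 to 3.24). Whether the groups differ in co-detection was not tested.

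**Figure D4:**
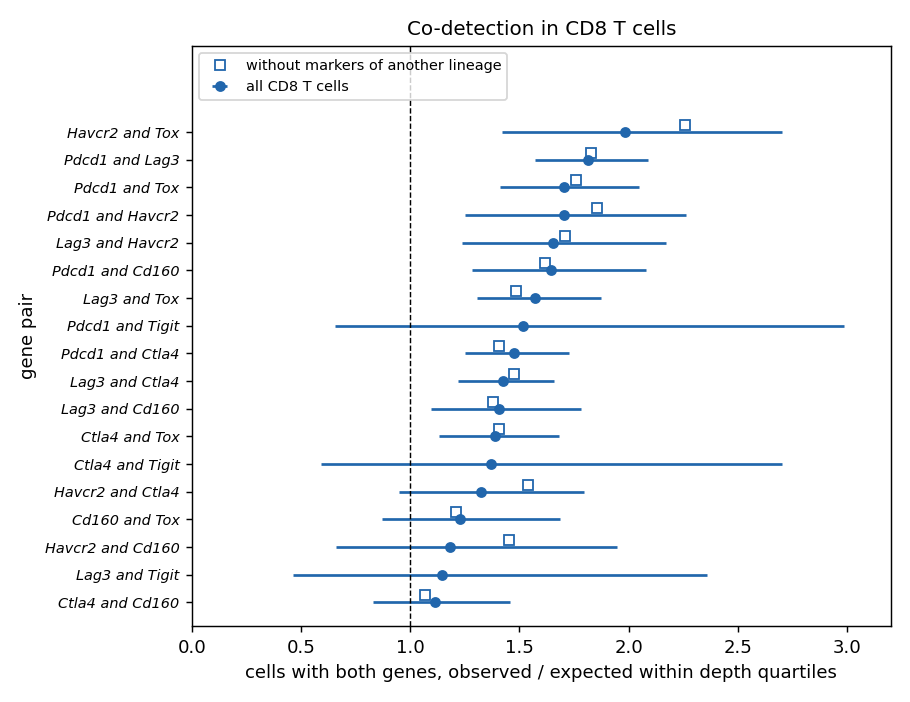
Observed over expected number of CD8 T cells with both genes of a pair (x axis), for the 18 pairs with at least 5 expected cells (y axis), with 95% counting intervals. Circles are all CD8 cells and squares those without markers of another lineage (where at least 5 cells were expected), and the dashed line marks 1. The circles run from 1.11 to 1.98.

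Tox, which took no part in counting receptors, was higher in CD8 cells the more receptors they held. Its level was 30.0 CPM (22.3 to 39.5) in the 492 CD8 cells with none, 61.3 CPM (48.9 to 75.8) in the 357 with 1, 96.3 CPM (76.4 to 120) in the 215 with 2 and 130 CPM (105 to 158) in the 177 with 3 or more. The intervals of none and 1 do not overlap, nor do those of 1 and 2, while those of 2 and of 3 or more overlap. Between cells with at least 2 receptors and cells with none the ratio was 3.74 (2.72 to 5.22), and 3.86 (2.60 to 5.89) without cells holding markers of another lineage. Here 7.08% of 8151 genes were at least 2-fold higher and 2.13% lower, and the median gene had a log2 ratio of 0.21. The cells compared differed in more than receptors: the median UMI was 3521 against 2988, 16.8% against 7.72% had a Mki67 or Top2a UMI, and Cd8a stood at 365 CPM with none and 767 CPM with 3 or more, Cd3e at 225 and 440 CPM. Their part in the Tox difference was not tested; without cycling cells the Tox ratio was 3.95, and with receptors counted at 2000 UMI per cell it was 3.39.

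The listed genes went in both directions between CD8 cells with at least 2 receptors and cells with none. The lists were chosen with earlier results of these data known. Over all 8151 genes tested, 7.08% were higher and 2.13% lower, and the median log2 ratio was 0.21. Of 22 factors, 8 were higher (Tox2, Nr4a2, Batf, Ikzf2, Ikzf3, Bhlhe40, Rbpj, Hif1a) and 3 lower (Eomes, Tcf7, Lef1), and 11 were not called, with a median log2 ratio of 0.79. Bhlhe40, a stress- and activation-induced repressor, had a ratio of 2.89 (2.34 to 3.6), Id2 1.74 (1.55 to 1.96) and Nr4a1 1.40 (1.16 to 1.68). Of the stem-like genes, Tcf7, Lef1 and Klf2 were lower and Xcl1 was higher. Tcf7, the gene of the factor TCF-1 that keeps memory-like T cells renewing, went from 147 CPM (129 to 167) with none to 55.7 CPM (40.1 to 75.2) with 3 or more, and Lef1, its relative, from 72.6 CPM (60.2 to 86.7) to 9.28 CPM (3.73 to 19.1). Xcl1, a chemokine that draws dendritic cells, went the other way, from 185 CPM (165 to 207) to 1479 CPM (1394 to 1568). It stood on the stem-like list, so that list did not move as 1 group.

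Of 11 effector genes tested, 4 were higher (Ifng, Ccl3, Ccl4, Cst7) and 2 lower (Gzmk, Ccl5). Here and for the lists that follow, the shares over all 8151 genes were 7.08% higher and 2.13% lower. Ccl3, a chemokine of activated T cells, had a ratio of 5.36 (4.44 to 6.50) and Ccl4 2.99 (2.67 to 3.37), while Ccl5 had 0.493 (0.474 to 0.514), or 0.551 without cells holding markers of another lineage. Interferon gamma, chosen after its values were seen, stood at 40.2 CPM (31.1 to 51.0) with none, 98.7 CPM with 1, 183 CPM with 2 and 315 CPM (277 to 358) with 3 or more. Of 7 costimulatory receptors, 4 were higher (Tnfrsf4, Tnfrsf9, Tnfrsf18, Cd226) and 0 lower. Tnfrsf18, the gene of GITR, had a ratio of 2.45 (2.02 to 2.99), while Icos (1.37), Cd28 (1.27) and Cd27 (1.23) stayed under 2. Of 16 further inhibitory receptors and related enzymes, 5 were higher (Cd200, Cd200r1, Klrg1, Klrc1, Nt5e). Cd200 had a ratio of 3.35 (2.41 to 4.74), and Nt5e, the gene of the adenosine-forming enzyme CD73, 2.21 (1.66 to 2.96), or 1.67 without cells holding markers of another lineage. Vsir (1.17) and Cd6 (1.27) were close to the median gene.

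Of 4 residency genes tested, Cxcr6, a chemokine receptor of tissue T cells, was higher (2.09, 1.79 to 2.45), and Itgae (1.09), Rgs1 (1.29) and Cd69 (0.744) were not called. Of 9 adaptors 1 was higher (Ptpn11), where 7.08% of 8151 genes were, and Ptpn6 (1.26), Lck (1.03) and Fyn (0.983) were between the limits. Of 6 cycling genes, 3 were higher (Mki67, Top2a, Cdk1). Mki67 had a ratio of 2.34 (1.44 to 3.91), but 0.942 when receptors were counted at 2000 UMI per cell, so its direction was not kept. Birc5 (1.95), also on that list, reached 0.609 with receptors counted at 2000 UMI per cell. Stmn1 (1.61) reached 0.670 without cells that had a Mki67 or Top2a UMI. That rule takes out cycling cells, so it cannot show whether the direction of a cycling gene was kept.

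**Figure D5:**
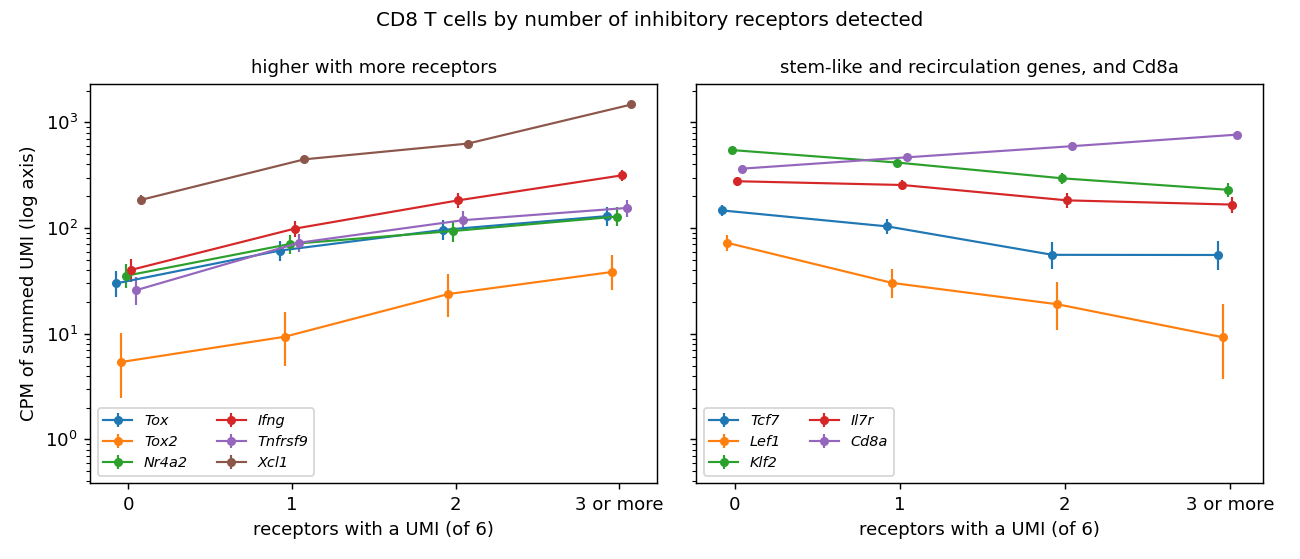
CPM of summed UMI (log axis) in CD8 T cells with 0, 1, 2 or 3 and more of the 6 receptors detected (x axis), with 95% counting intervals and points offset for reading. The left panel shows Tox, Tox2, Nr4a2, Ifng, Tnfrsf9 and Xcl1 and the right panel Tcf7, Lef1, Klf2, Il7r and Cd8a; some were chosen after their values were seen. Tox goes from 30.0 to 130 CPM and Tcf7 from 147 to 55.7 CPM.

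Among genes with 50 UMI or more, the 10 that stood out most in CD8 cells with several receptors were Sostdc1, Lgals7, Gm156, Gldc, Nrgn, Klri2, Bdh2, Pdzk1ip1, Rgs16 and Tff1. Apart from Nrgn and Tff1, they had fewer than 50 UMI in cells with none, and so passed that limit through the cells where they were high. All were picked as the highest ratios, and their intervals do not allow for that choice. Sostdc1, a secreted antagonist of BMP and Wnt signals, had 73 UMI against 4 (19.1-fold, 7.13 to 71.8). Nrgn, a calmodulin-binding protein, stood at 292 CPM against 32.4 CPM (9.01-fold, 6.79 to 12.2). Rgs16, an inhibitor of G protein signalling, had 118 CPM against 15 CPM (7.85-fold, 5.16 to 12.4), and Tff1, a trefoil peptide, 269 CPM against 34.8 CPM (7.74-fold, 5.88 to 10.4). Without cells holding markers of another lineage, which leaves a part of the same cells, these 10 ratios lay between 6.74 and 39.8. For cells with 1 receptor against none they were lower, with 1.44 for Gldc, 1.68 for Gm156 and 2.70 for Lgals7.

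The 10 lowest ratios were those of Ear1, Gzmm, Hba-a2, Lef1, Pde2a, Hba-a1, A630072M18Rik, Hbb-bt, Hbb-bs and Fam101b. These too were picked as extremes, and their intervals do not allow for that choice. Lef1 had a ratio of 0.199 (0.121 to 0.312), Gzmm, the gene of granzyme M, 0.182 (0.0740 to 0.389), and Pde2a, a phosphodiesterase, 0.205 (0.0969 to 0.396). The 4 haemoglobin genes and Ear1, a ribonuclease of eosinophils and macrophages, are not T cell genes. Without cells holding markers of another lineage, a rule that uses Hbb-bs and Hba-a1, their ratios were 0.753 (Hbb-bs), 0.913 (Hbb-bt), 1.02 (Hba-a1), 0.901 (Hba-a2) and 0.817 (Ear1), and none of the 5 was called.

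Each member's pattern over 14 cell groups of the CD45-positive library, on log2(CPM + 10), was set beside 6952 genes. The groups share 1 library and its free RNA, so Pearson's r is a description. Pdcd1 was most like Spn (CD43, 0.94), Cd3e (0.94), Cd3d (0.94), Cd3g (0.94) and Cst7 (0.93), and the Cd3 genes chose the T cells. Lag3 was most like Cd8b1 (0.93), Cd8a (0.91), Gpm6b (0.91), Xcl1 (0.90) and Penk (0.90), of which Cd8a and Cd8b1 chose the CD8 cells. Cd160 was most like Nrn1 (0.96), Dapl1 (0.95), Bdh2 (0.94), Klrc1 (0.93) and Ccl1 (0.93). Tox was most like Gata3 (0.98), 1700097N02Rik (0.96), Tnik (0.96) and Ms4a4b (0.95). Ctla4 was most like Gabarapl2 (0.93), 2310036O22Rik (0.93), Mgst2 (0.92), Ctla2a (0.92) and Il18r1 (0.92). Havcr2 reached lower values, with Pex14 (0.90), 1700123O20Rik (0.85), Commd10 (0.84), Mboat7 (0.80) and Frmd4b (0.80), and Tigit, with few UMI, was most like Twsg1 (0.87), Nebl (0.87), Fam134c (0.87), Rora (0.87) and Scly (0.86).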

How the data were processed

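Per the submitters' processing notes and the series design text, Cell Ranger 1.1.0 split the reads by sample, placed them on mm10 and merged duplicates by UMI. About 6000 cells were loaded per channel, and no source used here states how many channels were run. The CD45-positive library held 11432 barcodes, more than were loaded for 1 channel, and the reason was not tested. The authors deposited raw UMI counts of both libraries; each cell's library and class came from their annotation, whose UMI totals matched the counts in all 15389 cells. The smallest cell of the CD45-positive library had 2204 UMI. No doublets were removed and no doublet caller was run; cells holding markers of another lineage were instead left out in an alternative.

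Levels were CPM of summed counts with exact Poisson intervals. Clopper-Pearson limits were used for shares, and conditional binomial limits for ratios. Software was scipy 1.17.1 with numpy 2.4.6, pandas 2.3.3 and matplotlib 3.10.9 under Python 3.11.15. Called ratios were at least 2 or at most its inverse, in genes with at least 20 UMI. A count of 0 was given a floor of 3 counts. Genes used to make a split were left out of its results. The lineage limits and the alternative without Foxp3 cells holding Cd8 UMI were set after the data were seen, and the members and the 8 gene lists were chosen with earlier results of these data known. Named genes were the members, the 5 genes of highest r per member (at least 200 UMI over the groups), the 10 highest and 10 lowest ratios with at least 50 UMI in the CD8 comparison, and up to 4 genes of most UMI per list; some of the genes these rules or lists take are not reported here. The ratio and co-detection code was tested on simulated data. Sequences were from RefSeq, positions from GENCODE on GRCm38. Tests between libraries or animals were not made, since each group was 1 library.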

Additional observations from a re-analysis of the deposited data

Results flagged for a closer look

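The members had UMI in barcodes that the deposited classes do not call immune, outside the comparisons above and above the limit that a count of 0 allows. In the 3994 such barcodes of the CD45-positive library there were 202 UMI of Pdcd1, 325 of Lag3, 82 of Havcr2, 522 of Ctla4, 29 of Tigit, 57 of Cd160 and 250 of Tox. These came to 10.1 CPM of Pdcd1, 16.3 CPM of Lag3 and 26.2 CPM of Ctla4, beside the 31.9% of these barcodes that passed the Cd3 limit. In the 3849 non-immune cells of the CD45-negative library there were 46 UMI of Lag3, 8 of Havcr2, 5 of Ctla4, 8 of Tigit and 173 of Tox. Of the 173 Tox UMI, 123 were in alveolar type 2 cells (6.63 CPM, 5.51 to 7.91) and 40 in alveolar type 1 cells (7.46 CPM, 5.33 to 10.2), and endothelial cells of that library had 7 (0.710 CPM, 0.285 to 1.46). Pdcd1 and Cd160 had 0 UMI in the whole CD45-negative library.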

How the results depend on the processing

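No paired analysis was possible because each group is 1 library, and for the same reason no replicate could be left out. Of 113 alternative values of the main results, 90 kept their value within its interval or within 1.5 times for counts. Some of the 90 could not move. The Foxp3 limit does not enter the CD8 and CD4 groups, and the Cd8 limit does not enter the Foxp3 group. Ctla4 in Foxp3 cells moved from 290 to 339 CPM without cells holding markers of another lineage. Lag3 in CD8 cells moved from 211 CPM to 170.4 and 245 CPM with at least 1 and 3 Cd8 UMI, 249.99 CPM without markers of another lineage, 235 CPM as a mean of cells and 194 CPM with the B cell level subtracted. The count of members higher in CD8 than CD4 cells was 4, and 2 with at least 1 Cd8 UMI; that for Foxp3 against CD8 cells was 1, and 2 with at least 2 Foxp3 UMI or the B cell level subtracted. The share of CD8 cells with at least 2 receptors (31.6%) was 26.0% and 36.8% with at least 1 and 3 Cd8 UMI, 18.7% at 2000 UMI per cell and 9.025% with 2 UMI asked of each receptor, where Pdcd1 with Lag3 gave 2.74. Of the 35 genes of most similar pattern, 14 were kept with a pseudocount of 1 CPM, 22 with at least 50 UMI and 17 with at least 1000 UMI. In CD8 cells with at least 2 receptors 577 genes were higher and 174 lower than with none; 261 and 58 with at least 50 UMI and 307 and 111 for 1 receptor against none; lower genes numbered 280 with at least 1 Cd8 UMI and 405 with receptors counted at 2000 UMI per cell. Among called ratios of named genes, directions reversed for Hba-a1 (1.02 without markers of another lineage) and Mki67 (0.942 with receptors counted at 2000 UMI per cell). Ratios that were not called also crossed 1: Havcr2 Foxp3 against CD8 cells went from 1.33 to 0.748 and Cd160 Foxp3 against CD4 cells from 2.11 to 0.653 without Foxp3 cells holding Cd8 UMI, and Tigit Foxp3 against CD8 cells from 1.65 to 0.460 and Tox Foxp3 against CD4 cells from 1.40 to 0.975 without markers of another lineage. Tox Foxp3 against CD8 cells went from 0.784 to 1.07 with at least 2 Foxp3 UMI. In all, 7 member ratios between groups and 7 ratios of named genes in CD8 cells, those above included, crossed 1 under at least 1 alternative. The cause of these moves was not tested. Over all alternatives run, the Foxp3 against CD8 ratio of Ctla4 ran from 2.29 to 2.80 and the CD8 against CD4 ratio of Lag3 from 4.74 to 8.80. Depth limits Tigit, with 62 UMI in T cells, and shares of cells with a UMI throughout.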

Other observations

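The receptors were also counted in T cell gates that cross the Foxp3, CD8 and CD4 split. A gate of at least 2 UMI of Cd163l1, Il17a, Il23r, Sox13 and Blk together, listed as markers of gamma-delta-like T cells, took 546 T cells of any group. They held 89.9 CPM (77.5 to 104) of Pdcd1, 80.4 CPM (68.7 to 93.5) of Lag3, 116 CPM (102 to 131) of Ctla4 and 56.6 CPM (46.9 to 67.7) of Tox. T cells that also passed the limit for B cell markers were not left out of this gate, and which cell type its cells are was not tested. In the 574 T cells with a Mki67 or Top2a UMI, Ctla4 stood at 138 CPM (124 to 152) against 110 CPM (105 to 116) in the other 3681, and Lag3 at 73.3 CPM (63.5 to 84.3) against 100.3 CPM (94.9 to 106). These gates overlap the groups of the report.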
